A study of Mus musculus with 9 samples.

Results

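Endothelins are short peptides that constrict blood vessels and act on heart muscle, fibroblasts and nerve-associated cells. The family measured here is made of the 3 ligand genes Edn1, Edn2 and Edn3, the 2 receptor genes Ednra and Ednrb, and the converting enzyme genes Ece1 and Ece2. The 7 members were chosen by name, with earlier results of these libraries known, and all 7 were found by their Ensembl identifiers among the 55401 genes of the count table. Each has 1 row, and all are annotated as protein coding. Edn2 had too few counts for the test across genes, so 6 of the 7 members were tested.

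Each ligand is made as a long precursor, which furin-type proteases cut to an inactive big endothelin and which the converting enzymes then trim to the active peptide. Endothelial cells are the best known source of endothelin-1 in the heart. The type A receptor, on smooth muscle and cardiomyocytes, couples to phospholipase C and drives contraction and growth. The type B receptor, on endothelium, releases nitric oxide and clears the peptide from the blood, and the pair of Edn3 and Ednrb is known for its role in neural crest cells. Angiotensin II is known to induce Edn1 in cardiovascular cells.

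The data are 9 libraries of poly(A) RNA from the heart, made from mice of the inbred strain C57BL/6 for a study of the deubiquitinase JOSD2 and the calcium pump SERCA2a in cardiac hypertrophy. The labels form 3 groups of 3 libraries. Kmo+Ang II and Ang II mice both received Ang II, written here as the labels give it and read as the hormone angiotensin II, and Ctrl mice received PBS, a salt buffer. The labels do not explain Kmo, and they give no dose, duration, age, sex or genotype.

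The sample titles form a second grouping, by the letters KKA, WA and WC, which are not explained either and which cross the treatment labels. KKA marks the 3 Kmo+Ang II libraries. WA marks Ang II replicate 3 and Ctrl replicates 2 and 3, and WC marks Ang II replicates 1 and 2 and Ctrl replicate 1. Replicate numbers only name libraries. Whether each library is a different mouse is not stated, so a p-value here reflects how much these libraries differ, possibly for technical reasons.

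The promoters of the 2 tested ligand genes, Edn1 and Edn3, are shown because the results turn on them. Each window runs from 250 bases before to 30 bases after the annotated start, on the plus strand, from the RefSeq promoter table of build GRCm38.p6. The Edn1 window is chr13:42301226-42301505 and the Edn3 window is chr2:174760369-174760648. Capitals mark matches, on either strand, to the motifs of 4 kinds of factor known to act on Edn1. The motif searched for GATA factors was AGATAA. For AP-1 it was TGACTNA, with any base at N. The hypoxia response motif was ACGTG. The motif searched for FOXO factors was GTAAACA.
Edn1: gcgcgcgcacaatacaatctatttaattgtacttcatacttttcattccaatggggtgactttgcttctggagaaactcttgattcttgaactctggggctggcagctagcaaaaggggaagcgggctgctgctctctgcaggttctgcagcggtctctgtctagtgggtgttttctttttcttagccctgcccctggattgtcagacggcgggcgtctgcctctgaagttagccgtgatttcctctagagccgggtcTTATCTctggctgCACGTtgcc
Edn3: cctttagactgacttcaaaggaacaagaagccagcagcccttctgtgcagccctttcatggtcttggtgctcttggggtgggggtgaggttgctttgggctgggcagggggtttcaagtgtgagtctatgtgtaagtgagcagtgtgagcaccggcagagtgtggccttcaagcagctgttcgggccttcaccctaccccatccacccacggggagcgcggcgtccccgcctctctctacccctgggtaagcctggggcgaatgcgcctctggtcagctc
The Edn1 window held 1 GATA match, beginning at base 9 after the start, and 1 hypoxia response match, beginning at base 22, both on the minus strand. The Edn3 window held none of the 4 motifs. Over all 32851 windows of the same length, 10.7% held the GATA letters, 13.0% the AP-1 letters, 18.5% the hypoxia response letters and 3.49% the FOXO letters. All 7 members matched the table, with 10 windows in all, of which 4 belong to Ece1. One of the 10 windows held the GATA letters, 3 held the hypoxia response letters and 0 held either of the others. The only overlap between matches was in 1 Ece1 window, where 2 hypoxia response matches on opposite strands share bases. A match is a run of letters and was not tested as a binding site. Positions count from the annotated start, and bases outside the windows were not searched, so a motif absent here can lie nearby.

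Libraries held 56827533 to 73194268 counts. Each level is in CPM, a count divided by its library's size after TMM normalisation, which corrects for a few genes that take many reads. Mitochondrially encoded genes held 29.4% to 54.0% of the counts in Kmo+Ang II, 28.3% to 37.6% in Ang II and 42.1% to 51.0% in Ctrl, so that Ang II and Ctrl did not overlap. All 13 of these genes had a negative difference for Ang II minus Ctrl, with a median of -1.36 on the log2 scale. Of these, 9 had an unadjusted p under 0.05, beside 5.25% of all genes, and 0 were called by edgeR. The part of this share in the differences between treatment labels was not tested. Acta1, skeletal alpha-actin, a gene raised in hypertrophic muscle, divided the libraries into a high set (617 to 686 CPM in the 3 WA libraries and 633 in Kmo+Ang II replicate 1) and a low set (11.3 to 39.6 CPM in the other 5). The gene Kmo had 0.299 to 0.849 CPM in Kmo+Ang II, 0.247 to 1.26 CPM in Ang II and 0.886 to 1.002 CPM in Ctrl. The Ang II range overlapped both others, while the Kmo+Ang II libraries all lay below the Ctrl libraries. Of all genes tested, 2.64% were lower without overlap for Kmo+Ang II minus Ctrl. Josd2, the gene of the deubiquitinase, had 31.8 to 62.3 CPM in Kmo+Ang II, 44.8 to 62.8 CPM in Ang II and 46.2 to 53.9 CPM in Ctrl. Atp2a2, the gene of SERCA2a, had 1030.1 to 4019 CPM in Kmo+Ang II, 1099 to 2571 CPM in Ang II and 1223 to 3633 CPM in Ctrl, and by title letters 2495 to 3633 CPM in WA and 1099 to 1699 CPM in WC. Kmo+Ang II replicate 3 stood apart in its cell type markers, with a summed level of 2295 CPM for 6 atrial muscle genes, 3602 CPM for 10 fibroblast genes and 94.2 CPM for 7 epicardial genes, against at most 1231 CPM, 1402 CPM and 23.8 CPM in any other library. The atrial sum is mostly Nppa in those others, and by Myl7, Myl4 and Sln, which mark atrial muscle, 2 libraries stood apart. Kmo+Ang II replicate 3 had 469, 385 and 289 CPM of these, Ctrl replicate 2, titled WA, had 47.7, 65.2 and 35.0 CPM, and the other 7 libraries had at most 0.854, 2.89 and 0.488 CPM. Kmo+Ang II replicate 3 was also highest for 4 endocardial (95.2 CPM), 6 Schwann cell (53.6 CPM) and 6 adipocyte genes (29.1 CPM). Any other library had at most 21.1, 34.6 and 4.82 CPM of these. The sum of 13 cardiomyocyte genes was lowest in Kmo+Ang II replicate 3, at 20530 CPM, against 27672 CPM or more elsewhere. The heart label held in all 9 libraries, since all 13 cardiomyocyte markers and all 15 endothelial markers were detected in each.

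Compared per kilobase of exon, the converting enzyme Ece1 was the most abundant member and Edn2 the least. Over the 9 libraries the mean level per length was 11.6 ± 2.32 CPM per kb for Ece1, 5.05 ± 1.64 for Ednrb, 5.04 ± 1.14 for Ednra, 2.22 ± 0.917 for Edn1, 0.939 ± 0.990 for Edn3, 0.118 ± 0.0803 for Ece2 and 0.0269 ± 0.0269 for Edn2 (SD, n = 9 each). Ednra and Ednrb lay within each other's spread. The mean of Edn3 lay below the lowest Edn1 library, at 1.01 CPM per kb, although the ranges of these 2 genes overlapped. The ranges of Ece1 (9.07 to 17.2 CPM per kb) and of either receptor (3.28 to 7.99 CPM per kb for Ednrb, 3.77 to 7.24 for Ednra) did not overlap. In bulk tissue, fewer cells of a type and less RNA per cell cannot be told apart.

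**Figure D1:**
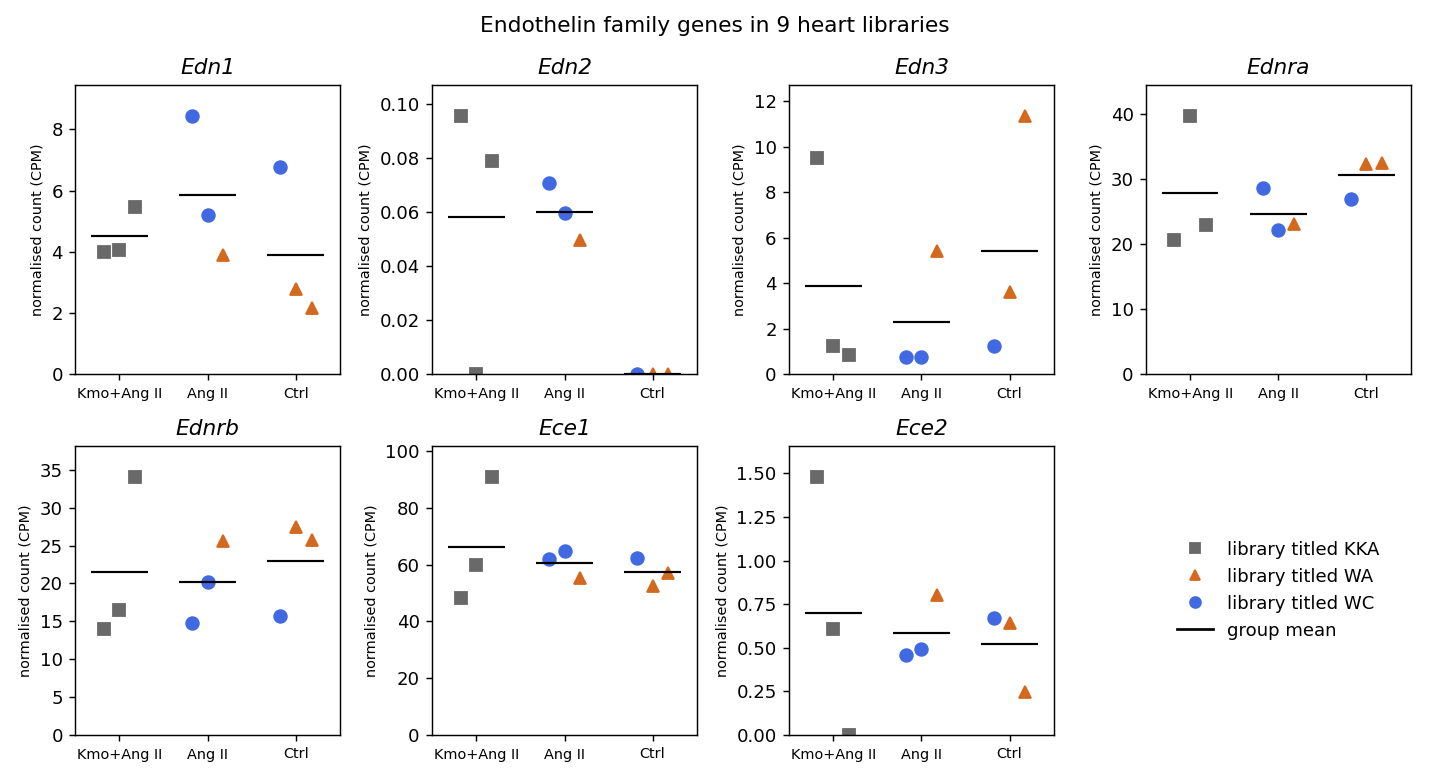
Normalised counts (CPM, linear axes from 0) of the 7 endothelin genes in each library, by treatment label, with the shape and colour of each point giving the letters of the sample title and the line the mean of 3 libraries. Edn1 and Edn3 span more within Ang II and within Ctrl than the label means do, and Edn2 is at 0 in all 3 Ctrl libraries.

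Edn1, which encodes the precursor of endothelin-1, was detected in every library with 117 to 717 counts. It had 3.98, 4.07 and 5.47 CPM in Kmo+Ang II, 8.44, 5.20 and 3.90 CPM in Ang II and 6.77, 2.79 and 2.15 CPM in Ctrl, in the order of replicates 1 to 3. The 3 labels overlapped. The highest values of the Ang II and Ctrl labels were both in libraries titled WC, and the lowest of both were in libraries titled WA.

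Against the treatment label, Edn1 passed no test. The log2 difference was 0.58 ± 0.45 (SE) for Ang II minus Ctrl (edgeR adjusted p = 0.907), -0.38 ± 0.44 for Kmo+Ang II minus Ang II (edgeR adjusted p = 0.9998) and 0.20 ± 0.44 for Kmo+Ang II minus Ctrl (edgeR adjusted p = 0.998). With the title letters as a covariate, Ang II minus Ctrl was 0.33 ± 0.30. Within the WA libraries the 1 Ang II library lay above both Ctrl libraries, and within the WC libraries the 2 Ang II libraries lay on either side of the 1 Ctrl library.

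By title letters, Edn1 averaged 4.51 ± 0.833 CPM in KKA, 2.95 ± 0.883 CPM in WA and 6.80 ± 1.62 CPM in WC (SD, n = 3 each). All 3 WA libraries lay below all 3 WC libraries. In a fit of these 6 libraries, 17.6% of all genes were lower in WA without overlap and 5.25% were called lower. Edn1 fell in WA in that fit, by 1.19 ± 0.28 on the log2 scale (edgeR adjusted p = 0.0191), or 2.31-fold lower by the means. The call was lost without any 1 of 5 of the 6 libraries (adjusted p 0.0523 to 0.0955), among them Ctrl replicate 2, the WA library with atrial markers (-1.15 without it, adjusted p = 0.066), and held without Ang II replicate 3. In the fit of all 9 libraries, whose spread includes KKA, the difference was -1.20 ± 0.30 (edgeR adjusted p = 0.224). The KKA libraries all lay above the WA libraries, beside 5.66% of all genes, with a difference of 0.61 ± 0.30 for KKA minus WA (edgeR adjusted p = 0.718).

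Edn2, the precursor gene of endothelin-2, was at the limit of detection. It had 8, 0 and 4 counts in Kmo+Ang II, 6, 4 and 4 counts in Ang II and 0, 0 and 0 counts in Ctrl. In CPM the Ang II libraries were at 0.0707, 0.0595 and 0.0495, and a count of 0, which allows up to 3 counts, allows up to 0.0532, 0.0716 and 0.0521 CPM in the Ctrl libraries. Ang II replicate 3 lay below all 3 of these limits and all 3 Ang II libraries below that of Ctrl replicate 2. Not every pair of libraries could thus be told apart at this depth. As groups, Ang II had 4 to 6 counts and Ctrl had 0, a difference that 3 libraries against 3 cannot settle. The difference in log2(CPM + 0.1), a scale that understates low values, was 0.67 for Ang II minus Ctrl by a two-sided exact permutation test with p = 0.1, the smallest p that 3 against 3 libraries can give. The other 5 comparisons of Edn2 gave exact permutation p-values of 0.4 to 1.

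Edn3, the precursor gene of endothelin-3, had the widest range of the tested ligands. It had 9.52, 1.25 and 0.829 CPM in Kmo+Ang II, 0.754, 0.758 and 5.40 CPM in Ang II and 1.26, 3.63 and 11.4 CPM in Ctrl. The libraries at 3.63 CPM or more were Kmo+Ang II replicate 1 and the 3 titled WA, and the other 5 had 1.26 CPM or less. These 4 libraries are the ones that were high for Acta1.

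The treatment labels overlapped for Edn3 in every comparison. The log2 difference was -1.23 ± 1.11 (SE) for Ang II minus Ctrl (edgeR adjusted p = 0.915), 0.75 ± 1.10 for Kmo+Ang II minus Ang II (edgeR adjusted p = 0.9998) and -0.48 ± 1.10 for Kmo+Ang II minus Ctrl (edgeR adjusted p = 0.998). Without Kmo+Ang II replicate 1, Kmo+Ang II minus Ang II was -1.15. With the title letters as a covariate, Ang II minus Ctrl was -0.60 ± 0.86.

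By title letters, Edn3 averaged 3.87 ± 4.90 CPM in KKA, 6.79 ± 4.05 CPM in WA and 0.923 ± 0.290 CPM in WC (SD, n = 3 each). All 3 WA libraries lay above all 3 WC libraries. In the fit of 6 libraries, 17.1% of all genes were higher in WA without overlap and 8.06% were called higher. Edn3 rose in WA in that fit, by 2.90 ± 0.42 on the log2 scale (edgeR adjusted p = 0.00395), a 7.36-fold difference of the means. It kept its call without each of the 6 libraries in turn (adjusted p 0.00321 to 0.033), and was 3.20 without Ctrl replicate 2. In the fit of 9 libraries the difference was 2.88 ± 0.84 (edgeR adjusted p = 0.224), and without Kmo+Ang II replicate 1 it was 2.88 ± 0.45 (edgeR adjusted p = 0.0105). KKA minus WA was -0.81 ± 0.78 (edgeR adjusted p = 0.795) with all libraries and -2.70 ± 0.52 (edgeR adjusted p = 0.0167) without that library. Kmo+Ang II replicate 1 had the highest Edn3 of the KKA libraries, so leaving it out selects on the value tested. The calls made without it are therefore no added evidence. Without it 1576 genes were called for WA minus WC and 1709 for KKA minus WA.

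The make-up of the ligand counts showed the same division. Edn1 held 29.3%, 76.5% and 85.8% of the counts of the 3 ligands in Kmo+Ang II replicates 1 to 3. In the WA libraries it held 41.7% in Ang II replicate 3 and 43.5% and 15.9% in Ctrl replicates 2 and 3, and in the WC libraries 91.1% and 86.4% in Ang II replicates 1 and 2 and 84.3% in Ctrl replicate 1. Edn3 was the most counted ligand in all 3 WA libraries and in Kmo+Ang II replicate 1, and Edn1 in the other 5. These shares are not scaled for length, and the exons of Edn3 span 4.113 kb, against 2.139 kb for Edn1. Per kilobase, Edn3 exceeded Edn1 only in Kmo+Ang II replicate 1 (1.24 times) and Ctrl replicate 3 (2.74 times).

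**Figure D2:**
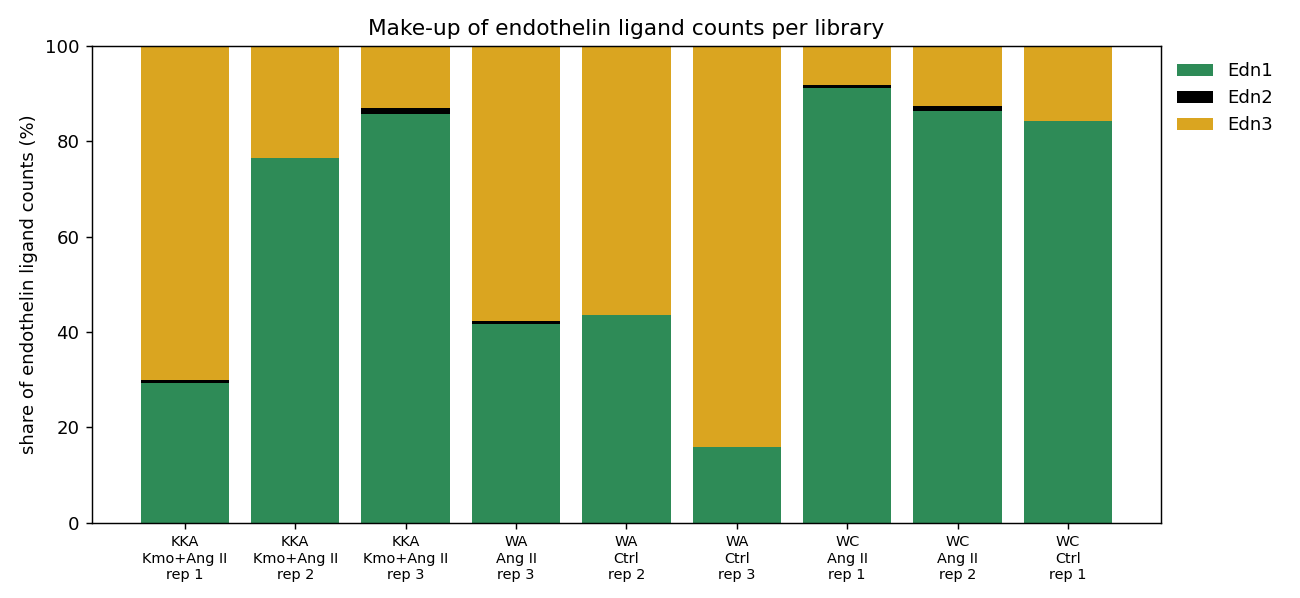
Share of the summed Edn1, Edn2 and Edn3 counts (%, not scaled for length) in each library, ordered by the letters of the sample title. Edn3 takes 56.5% to 84.1% in the WA libraries and 8.13% to 15.7% in the WC libraries.

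Ednra, the type A receptor, varied least of the ligands and receptors, with an SD of log2 CPM of 0.31 over the 9 libraries. It had 20.7, 39.6 and 22.9 CPM in Kmo+Ang II, 28.5, 22.1 and 23.1 CPM in Ang II and 26.9, 32.3 and 32.4 CPM in Ctrl. The labels overlapped, and Kmo+Ang II replicate 2 was the highest library. The log2 difference was -0.31 ± 0.26 (SE) for Ang II minus Ctrl (edgeR adjusted p = 0.915), 0.17 ± 0.26 for Kmo+Ang II minus Ang II (edgeR adjusted p = 0.9998) and 0.19 ± 0.18 for WA minus WC in 6 libraries (edgeR adjusted p = 0.532). All 3 signs turned when library size was the only scaling, which gave 0.36, -0.15 and -0.18 and moved the median of all genes by 0.65, -0.32 and -0.31 in these comparisons. An antisense transcript, 4933431K23Rik, shares 91 exon bases with Ednra and had 43 to 251 counts, the most in Kmo+Ang II replicate 2. Whether counting used strand is not given, so its reads and those of Ednra cannot be told apart there.

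Ednrb, the type B receptor, differed between the WA and WC libraries and overlapped between the labels. It had 14.0, 16.5 and 34.1 CPM in Kmo+Ang II, 14.7, 20.2 and 25.5 CPM in Ang II and 15.7, 27.4 and 25.7 CPM in Ctrl. The 3 WA libraries lay between 25.5 and 27.4 CPM and the 3 WC libraries between 14.7 and 20.2 CPM, with no overlap. Of all genes, 16.5% were higher in WA without overlap and 17.2% were lower. The KKA libraries spanned both, with the highest value of all in Kmo+Ang II replicate 3. That library was also the highest for atrial, fibroblast, epicardial, endocardial, Schwann cell and adipocyte markers and the lowest for cardiomyocyte markers.

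By treatment label the log2 difference of Ednrb was -0.18 ± 0.37 (SE) for Ang II minus Ctrl (edgeR adjusted p = 0.963) and 0.09 ± 0.37 for Kmo+Ang II minus Ang II (edgeR adjusted p = 0.9998). Without Kmo+Ang II replicate 3, Kmo+Ang II minus Ang II was -0.40 ± 0.31. In the fit of 6 libraries Ednrb rose in WA by 0.65 ± 0.17 (edgeR adjusted p = 0.031), beside 8.06% of all genes called higher. The means were 26.2 ± 1.05 CPM in WA and 16.9 ± 2.96 CPM in WC (SD, n = 3 each), a 1.55-fold difference. The call was lost without any 1 of 5 of the 6 libraries (adjusted p 0.0518 to 0.115), that is all but Ang II replicate 3, with 0.62 (adjusted p = 0.0947) without Ctrl replicate 2, and when library size was the only scaling (0.32, adjusted p = 0.73). In the fit of 9 libraries it was 0.64 ± 0.30 (edgeR adjusted p = 0.295).

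The balance of the 2 receptors had no common direction by label. The level per length of Ednra over that of Ednrb was 1.15, 1.87 and 0.523 in Kmo+Ang II, 1.51, 0.851 and 0.705 in Ang II and 1.34, 0.917 and 0.983 in Ctrl. Both extremes were Kmo+Ang II libraries. The 3 WA libraries were all below 1, at 0.705, 0.917 and 0.983, and the WC libraries were at 1.51, 0.851 and 1.34.

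Ece1, the main converting enzyme of big endothelin-1, had the smallest spread over the 9 libraries, with an SD of log2 CPM of 0.26. It had 48.1, 59.7 and 91.0 CPM in Kmo+Ang II, 62.0, 64.9 and 55.2 CPM in Ang II and 62.4, 52.5 and 57.1 CPM in Ctrl. Kmo+Ang II held both the highest library, again replicate 3, and the lowest, replicate 1. The log2 difference was 0.08 ± 0.25 (SE) for Ang II minus Ctrl (edgeR adjusted p = 0.979) and 0.13 ± 0.25 for Kmo+Ang II minus Ang II (edgeR adjusted p = 0.9998). Without Kmo+Ang II replicate 3, Kmo+Ang II minus Ang II was -0.17 ± 0.22. The WA libraries, at 54.9 ± 2.28 CPM, all lay below the WC libraries, at 63.1 ± 1.60 CPM (SD, n = 3 each), with a difference of -0.19 ± 0.15 in 6 libraries (edgeR adjusted p = 0.450). Of all genes in that fit, 17.6% were lower without overlap. The ratio of Ece1 to Edn1 per length was 4.88 to 6.72 in KKA, 5.71 to 10.7 in WA and 2.96 to 5.04 in WC, so that WA and WC did not overlap.

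Ece2, a related converting enzyme known mainly from nervous tissue, had few counts, and its counts are uncertain. It had 124, 40 and 0 counts in Kmo+Ang II, 39, 33 and 65 counts in Ang II and 38, 27 and 14 counts in Ctrl. The annotation holds a second gene on the same strand, Gm49333, that shares 2937 exon bases with Ece2. Gm49333 had 0, 0 and 115 counts in Kmo+Ang II, 0, 36 and 0 counts in Ang II and 26, 0 and 98 counts in Ctrl. The library with 0 counts for Ece2 was thus the one with the most for Gm49333, and reads of the shared exons cannot be assigned to either gene. The 2 genes summed gave 124, 40 and 115 counts in Kmo+Ang II, 39, 69 and 65 in Ang II and 64, 27 and 112 in Ctrl.

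No difference of Ece2 passed a test. It was 0.17 ± 1.06 (SE) for Ang II minus Ctrl (edgeR adjusted p = 0.990), 0.27 ± 1.05 for Kmo+Ang II minus Ang II (edgeR adjusted p = 0.9998) and 0.08 ± 0.55 for WA minus WC in 6 libraries (edgeR adjusted p = 0.936). With the counts of both genes summed, an alternative chosen after seeing the data, Ang II minus Ctrl turned to -0.71 ± 0.58.

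**Figure D3:**
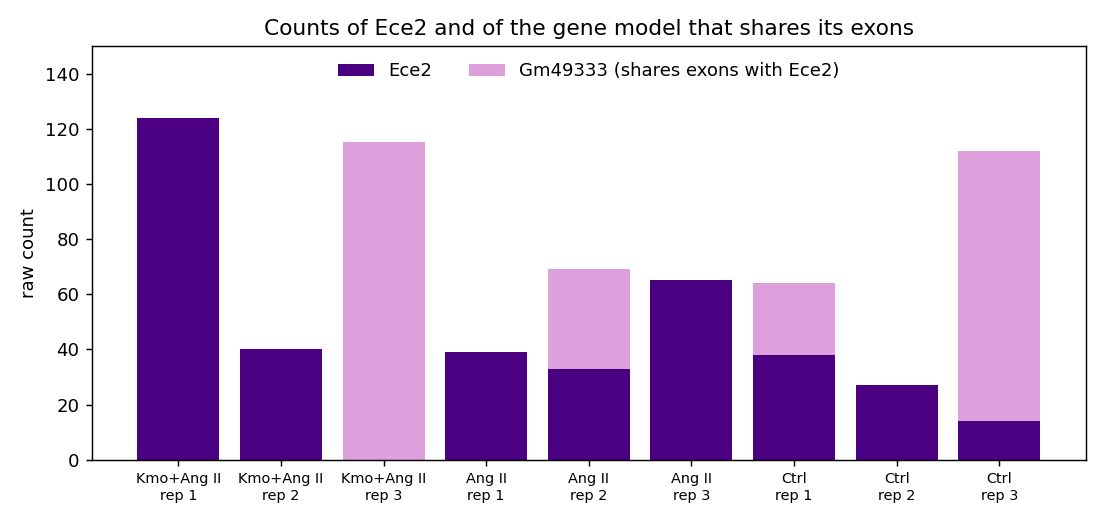
Raw counts of Ece2 (dark) and of Gm49333, the gene model that shares its exons (light), stacked for each library. Kmo+Ang II replicate 3 has 0 counts for Ece2 and 115 for Gm49333, and Kmo+Ang II replicate 1 has 124 and 0.

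Set against the whole table, no member was called in any of the 6 comparisons of all 9 libraries, and neither was any other of the 19091 genes tested. The share called at an adjusted p under 0.05 was 0% in each. At an unadjusted p under 0.05, 0 of the 6 tested members passed for Ang II minus Ctrl, beside 5.25% of all genes (1003 genes). For Kmo+Ang II minus Ang II 0 passed, beside 2.16% (412 genes), and for Kmo+Ang II minus Ctrl 0 passed, beside 2.79% (533 genes). For WA minus WC 2 passed (Edn1 and Edn3), beside 18% (3443 genes). For KKA minus WA 0 passed, beside 7.05% (1345 genes), and for KKA minus WC 1 passed (Edn3, 2.08 ± 0.82), beside 3.51% (671 genes). Without overlap between the groups, 0 of 6 members were higher for Ang II minus Ctrl, beside 6.44% of all genes, and 0 were lower, beside 5.74%. The counts were 0 and 0 for Kmo+Ang II minus Ang II, beside 3.22% and 2.94%, and for Kmo+Ang II minus Ctrl 0 and 0, beside 4.13% and 2.64%. For KKA minus WA 1 member was higher (Edn1), beside 5.66%, and 0 were lower, beside 2.52%. For KKA minus WC 0 were higher, beside 3.66%, and 0 were lower, beside 3.93%. For WA minus WC 2 members were higher (Edn3 and Ednrb), beside 16.5%, and 2 were lower (Edn1 and Ece1), beside 17.2%. The DESeq2 Wald test, an alternative, called between 2 genes and 505 genes in these comparisons. The 505 genes were those for WA minus WC, and they held Edn1 (DESeq2 adjusted p = 0.0171) and Edn3 (DESeq2 adjusted p = 0.0128).

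In the fit of the 6 libraries titled WA or WC, 13.3% of 18111 genes were called (2409 genes). Of the 6 tested members 2 rose, Edn3 and Ednrb, beside 8.06% of all genes, and 1 fell, Edn1, beside 5.25%. At an unadjusted p under 0.05 these 3 passed, beside 29.7% of all genes. Without overlap between the groups, 2 members were higher in WA, beside 17.1% of all genes, and 2 were lower, Edn1 and Ece1, beside 17.6%. The median log2 difference of the 6 members was 0.14, against -0.01 for all genes. With the treatment label as a covariate, Edn1 (-1.11 ± 0.27, adjusted p = 0.0303), Edn3 (2.72 ± 0.40, adjusted p = 0.00585) and Ednrb (0.67 ± 0.18, adjusted p = 0.0421) kept their calls. These members were looked at with earlier results on the title letters known, so the calls describe these libraries and are not independent evidence of a pattern.

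**Figure D4:**
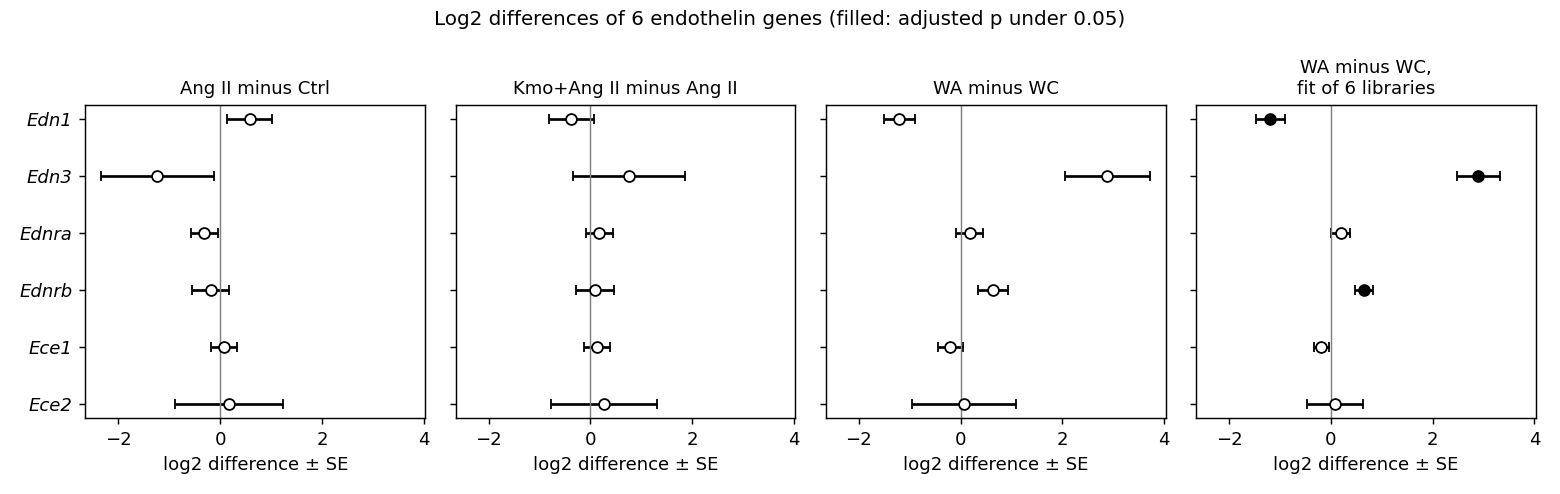
Log2 differences (points) with standard errors (bars) of the 6 tested endothelin genes for 2 comparisons of treatment labels and for WA minus WC in the fits of 9 and of 6 libraries. Filled points, adjusted p under 0.05, are Edn1, Edn3 and Ednrb in the fit of 6 libraries only.

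Of 12 genes that process the precursor or break down the peptide 8 could be tested. For Ang II minus Ctrl 0 were called and the median was 0.10, against 0.02 for all genes, with the smallest p for Cma1 (a mast cell chymase, 0.507 ± 0.259 CPM in Ang II and 0.152 ± 0.136 CPM in Ctrl, edgeR adjusted p = 0.891) and Pcsk5 (a proprotein convertase, 3.76 ± 0.481 and 2.60 ± 0.528 CPM, edgeR adjusted p = 0.891). For Kmo+Ang II minus Ang II 0 were called, with the smallest p for Mcpt4 (a mast cell protease, 0.66 ± 0.84, edgeR adjusted p = 0.9998) and Pcsk5 (-0.19 ± 0.34, edgeR adjusted p = 0.9998). In the 6 libraries 7 of 8 had a negative difference, with a median of -0.15, against -0.01 for all genes. Of these 1 of 8 was called, beside 13.3% of all genes. Pcsk7, another proprotein convertase, fell to 16.1 ± 1.97 CPM in WA, against 26.7 ± 3.27 CPM in WC (-0.72 ± 0.17, edgeR adjusted p = 0.0202). Mcpt4 came next there, at -0.76 ± 0.73 (edgeR adjusted p = 0.529). Furin, which cuts the precursor, had 32.7 ± 5.48 CPM in WA and 34.0 ± 1.21 CPM in WC.

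Among 22 genes of receptor coupling and desensitisation, 0 were called by treatment label. The smallest p for Ang II minus Ctrl belonged to Prkca, a protein kinase C (-1.06 ± 0.46, edgeR adjusted p = 0.891), and Gnai2, an inhibitory G protein subunit (-0.62 ± 0.28, edgeR adjusted p = 0.891). For Kmo+Ang II minus Ang II it belonged to Plcb2, a phospholipase C (5.03 ± 1.89 CPM in Kmo+Ang II and 2.12 ± 0.649 CPM in Ang II, edgeR adjusted p = 0.9998), and Rgs4, which shortens G protein signals (-0.48 ± 0.20, edgeR adjusted p = 0.9998). In the 6 libraries 2 of 22 rose in WA, beside 8.06% of all genes, and 1 fell, beside 5.25%, which are shares near the background. Prkca rose to 14.9 ± 3.99 CPM in WA, against 6.33 ± 2.32 CPM in WC (1.25 ± 0.29, edgeR adjusted p = 0.0173). Gna12, a G protein subunit, rose by 0.89 ± 0.18 (edgeR adjusted p = 0.0111), and Plcb4, another phospholipase C, fell by 0.62 ± 0.18 (edgeR adjusted p = 0.0401).

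Of 13 transcription factors known to act on Edn1, 0 were called by treatment label, with the smallest p for Gata4, a cardiac GATA factor. Its difference was -0.74 ± 0.28 for Ang II minus Ctrl (edgeR adjusted p = 0.891) and 0.30 ± 0.28 for Kmo+Ang II minus Ang II (edgeR adjusted p = 0.9998). Second came Hif1a, the hypoxia factor, at -0.21 ± 0.19 (edgeR adjusted p = 0.915), and Klf2, a flow-responsive factor, at -0.28 ± 0.28 (edgeR adjusted p = 0.9998). In the 6 libraries 2 of 13 fell, beside 5.25% of all genes, and 0 rose, beside 8.06%. Gata2, the endothelial GATA factor, had 17.0 ± 3.05 CPM in WA and 27.1 ± 0.686 CPM in WC (-0.66 ± 0.17, edgeR adjusted p = 0.0294). Smad3, which relays TGF-beta signals, had 9.64 ± 0.896 CPM in WA and 17.4 ± 2.30 CPM in WC (-0.84 ± 0.17, edgeR adjusted p = 0.0118). Of the 13 factors 7 had a negative and 6 a positive difference. Named after their values were seen, Jun (0.50 ± 0.17, edgeR adjusted p = 0.081), Klf4 (0.47 ± 0.17, edgeR adjusted p = 0.0851) and Smad4 (0.28 ± 0.16, edgeR adjusted p = 0.278) were higher in WA without overlap and were not called, and Gata4 was at 0.70 ± 0.23 (edgeR adjusted p = 0.0652). Rela, Gata2 and Smad3 were lower without overlap. Rela, with 26.4 ± 0.589 CPM in WA and 31.8 ± 1.05 CPM in WC, was not called. Of all genes, 17.1% were higher without overlap and 17.6% were lower.

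Of 21 other vasoactive genes 19 could be tested and 0 were called by treatment label. The smallest p for Ang II minus Ctrl belonged to Gucy1b1, a subunit of the nitric oxide receptor (18.7 ± 1.305 CPM in Ang II and 13.7 ± 1.89 CPM in Ctrl, edgeR adjusted p = 0.891), and Npr1, a natriuretic peptide receptor (0.48 ± 0.27, edgeR adjusted p = 0.891). For Kmo+Ang II minus Ang II it belonged to Ptgis and Ptgir, the prostacyclin synthase and receptor (0.93 ± 0.47 and 0.63 ± 0.33, edgeR adjusted p = 0.9998 for both). In the 6 libraries 1 of 19 was called, beside 13.3% of all genes. This was Nos3, the endothelial nitric oxide synthase, which fell to 44.1 ± 3.33 CPM in WA, against 65.7 ± 9.16 CPM in WC (-0.56 ± 0.17, edgeR adjusted p = 0.0489). Bdkrb2, the bradykinin B2 receptor, came next (-1.42 ± 0.46, edgeR adjusted p = 0.0629). Agtr1a, the main receptor of angiotensin II, had 12.7 to 17.8 CPM in Kmo+Ang II, 0.860, 20.2 and 10.1 CPM in Ang II and 17.6 to 22.2 CPM in Ctrl.

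Some cell type markers moved with the title letters beside the ligands and Ednrb, and their part in those results was not tested. The summed level of the 15 endothelial markers was 1220 to 1452 CPM in WA and 1582 to 1669 CPM in WC, and 14 of the 15 had a negative difference. Of these only Vwf, the von Willebrand factor gene, was called in the fit of 6 libraries (-1.33 ± 0.24, edgeR adjusted p = 0.00678). In that fit 5.25% of all genes were called lower in WA and 8.06% higher. The sum of 13 cardiomyocyte markers was 44716 to 55313 CPM in WA and 27672 to 34375 CPM in WC. Of the 13, 6 were called higher, beside 8.06% of all genes. The sum of 5 red cell markers was 116 to 489.7 CPM in WA and 2944 to 7318 CPM in WC. All 5 were called lower, beside 5.25% of all genes. Of 10 fibroblast markers 4 were called higher, beside 8.06% of all genes. Their sums were 1267 to 1376 CPM in WA and 1012 to 1387 CPM in WC. The sum of 6 markers of melanocytes, cells in which Edn3 and Ednrb are known to act, was 7.92 to 39.0 CPM in WA and 45.1 to 54.8 CPM in WC. Most of it was Mitf, the melanocyte transcription factor, with 6.20 to 36.4 CPM in WA and 43.7 to 53.1 CPM in WC, which was not called (edgeR adjusted p = 0.426). The 1 called melanocyte marker went the other way, since Dct, a pigment enzyme, rose to 1.83 ± 0.204 CPM in WA, against 0.846 ± 0.160 CPM in WC (1.123 ± 0.34, edgeR adjusted p = 0.0492). Tyr, a defining marker, was at 0 in all 9 libraries. Of the other melanocyte markers, Mlana had 4.54 CPM in Kmo+Ang II replicate 3 and at most 0.106 CPM in any other library. Tyrp1 had 0.454 CPM in Kmo+Ang II replicate 3 and at most 0.0942 CPM elsewhere, and Pmel had 0.0716 to 0.808 CPM. The sum of 6 Schwann cell markers was 19.6 to 22.8 CPM in WA and 31.1 to 34.6 CPM in WC. Of 5 tested, 1 (Cdh19) was called lower. Of 10 macrophage and monocyte markers 2 were called lower (Ptprc and Csf1r), and of 7 epicardial markers 1 was (Wt1). Of 4 tested atrial markers 1 was called higher (Nppa). In other lists 0 of 10 pericyte and smooth muscle markers, 0 of 3 tested endocardial markers and 0 of 4 tested adipocyte markers were called.

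Acta1 rose in WA to 660 ± 37.6 CPM, against 13.4 ± 3.47 CPM in WC (5.63 ± 0.27, edgeR adjusted p = 3.15e-06). Edn1 was at 3.98 CPM or less in all 4 libraries that were high for Acta1 and at 4.07 CPM or more in the 5 that were low. The values 3.98 and 4.07 CPM belong to Kmo+Ang II replicates 1 and 2, so Edn1 had no clear gap between the sets. The 2 sets were read from Acta1 itself, so this is a description of the libraries.

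**Figure D5:**
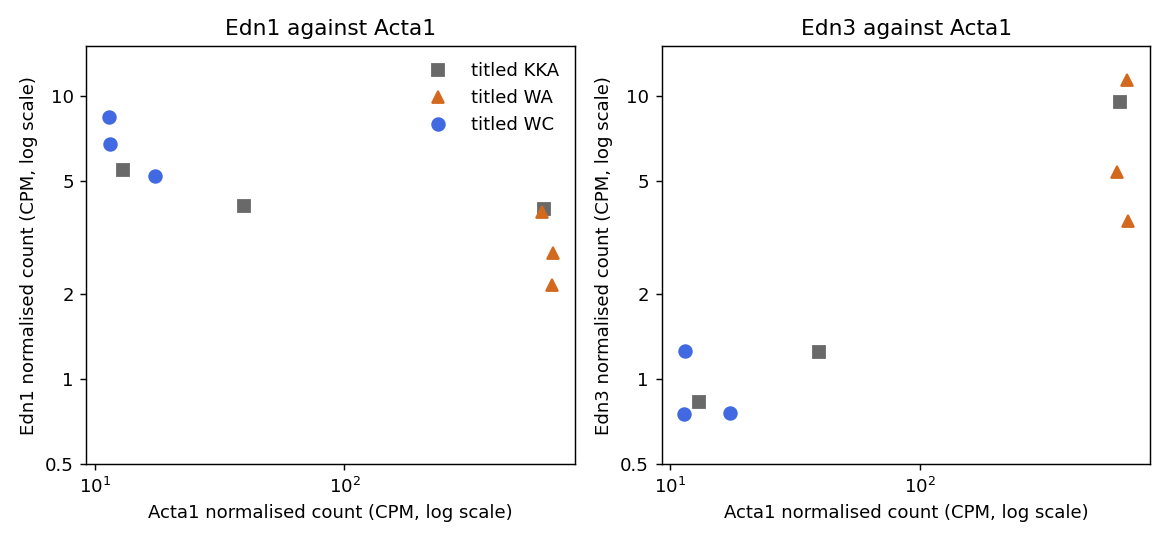
Edn1 (left) and Edn3 (right) against Acta1, as normalised counts (CPM, both axes on a log scale), with 1 point for each of 9 libraries. The 3 WA libraries and 1 KKA library form the high Acta1 set, with Edn3 at 3.63 CPM or more and Edn1 at 3.98 CPM or less. Edn1 in the low set starts at 4.07 CPM, with no clear gap.

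The genes whose pattern was most like each member were ranked by Pearson's r of log2 CPM over the 9 libraries, among 12370 tested genes with a mean of at least 1 CPM. All values share libraries, depth and the division just described. For Edn1 they were Adamts5 (0.978), Lpar4 (0.955) and Suco (0.951), and for Edn3 they were Pcbp1 (0.990), Eif4e3 (0.990) and Zdhhc5 (0.986). Ednra was nearest to Csdc2 (0.918), Ppp1ccb (0.918) and Plekho1 (0.890), and Ednrb to C77080 (0.951), Fam19a5 (0.950) and Micu3 (0.944). Ece1 was nearest to Atp10a (0.984), Slc43a3 (0.976) and Cebpd (0.971). For Ece2 the nearest were Ifit2 (0.952), Igsf9b (0.939) and Lcmt2 (0.935), an order that the library with 0 counts can set.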

How the data were processed

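Gene expression was measured by paired-end sequencing of poly(A) RNA in 9 libraries of mouse heart, per the labels' protocols. The deposited table holds raw counts per Ensembl gene, 1 column per library, per the file headers. Bowtie 0.12.2, HISAT2 2.0, StringTie 1.3.0 and genome build mm8 are named in the submitters' processing notes, with no role or order. How the counts were made, with which annotation and with or without strand, is not given in the sources used here. If StringTie made them from coverage, they are near to read counts and not equal to them.

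From these counts, CPM was computed with TMM library sizes. Symbols were matched for 55141 of 55401 genes. Exon lengths came from an annotation of another build (GRCm38), so levels per length are approximate. Differences were tested with edgeR 4.0.16 (R 4.3.3): filterByExpr, TMM, robust quasi-likelihood F test, Benjamini-Hochberg adjustment over all genes tested, and a call at an adjusted p under 0.05. The standard error restates the fitted difference and its F statistic. Intervals were not computed, and a count of 0 allows up to 3 counts.

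All members and lists were chosen with earlier results of these data known. Named genes are the members, the 2 list genes of smallest p per comparison described, every called gene of the pathway lists, the 3 genes most like each member, and Acta1, Agtr1a, Josd2, Atp2a2 and Kmo. Alternatives were DESeq2 size factors, library size only, no filter, a minimum of 1 CPM in 3 libraries, limma-voom (3.58.1), the Wald test of DESeq2 1.42.0, each library left out, only the groups compared, the other grouping as a covariate and a pseudocount of 0.5.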

Additional observations from a re-analysis of the deposited data

Results flagged for a closer look

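Ece2 met a rule for closer inspection because its Ang II libraries lay on opposite sides of the Ctrl libraries under the 2 title letters. Among the libraries titled WA, Ang II replicate 3 (65 counts) lay above Ctrl replicates 2 and 3 (27 and 14 counts), a log2 ratio of mean CPM of 0.86. Among the libraries titled WC, Ang II replicates 1 and 2 (39 and 33 counts) lay below Ctrl replicate 1 (38 counts) in CPM, a log2 ratio of -0.50. This difference was not tested, and the counts of Ece2 are uncertain because Gm49333 shares its exons. With the 2 genes summed, Ang II replicate 3 had 65 counts and Ctrl replicates 2 and 3 had 27 and 112. It then no longer lay above both. In the WC libraries the sums were 39 and 69 counts in Ang II replicates 1 and 2 and 64 in Ctrl replicate 1.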

How the results depend on the processing

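No paired analysis was possible because replicate numbers only name libraries and the labels give no pairing between groups. In the 6 libraries titled WA or WC, Edn3 kept its call under all alternatives, while Edn1 (-1.46, adjusted p = 0.094) and Ednrb lost theirs without any 1 of 5 libraries and when only library size was scaled for. Of 42 differences of members, 17 kept their sign throughout. With library size as the only scaling, which moved the median of all genes by -0.32 to 0.65, 14 of 42 values changed sign and 2 lost a call. Of 618 values under the other alternatives 42 changed sign, 10 lost a call and 8 gained one. The cause was not tested. Edn2 and Ece2 are limited by their few counts. A pseudocount of 0.5 in place of 0.1 left every exact permutation p of Edn2 as it was.

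The number of genes called in the 6 comparisons of 9 libraries was 0. With the DESeq2 Wald test it was 2 for Ang II minus Ctrl, 3 for Kmo+Ang II minus Ang II, 9 for Kmo+Ang II minus Ctrl, 505 for WA minus WC, 91 for KKA minus WA and 27 for KKA minus WC. With library size as the only scaling it was 11 for WA minus WC, 1 for KKA minus WA, 7 for KKA minus WC and 232 in 6 libraries, against 2409. With no low-count filter it was 5, 1 and 4 for WA minus WC, KKA minus WA and KKA minus WC. Fitting only the groups compared gave 1 for Kmo+Ang II minus Ctrl and 2409 for WA minus WC. Leaving out 1 library gave 0 to 1 for each comparison of treatment labels, 0 to 1576 for WA minus WC, 0 to 1709 for KKA minus WA, 0 to 7 for KKA minus WC and 459 to 2980 in 6 libraries. The 1576 and 1709 were both without Kmo+Ang II replicate 1.

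Signs turned with library size as the only scaling for Ednra (0.36, -0.15, 0.21, -0.18, 0.11, -0.069 and, in 6 libraries, -0.18) in all comparisons. They also turned for Ednrb in those of treatment labels (0.49 for Ang II minus Ctrl, -0.32 for Kmo+Ang II minus Ang II, 0.17 for Kmo+Ang II minus Ctrl). Ece1 turned for Kmo+Ang II minus Ang II (-0.26) and KKA minus WC (-0.17), and Ece2 for WA minus WC (-0.13 in 9 and in 6 libraries). With the title letters as a covariate Ednrb was 0.051 for Ang II minus Ctrl. With limma-voom Ece2 was -0.98 for Kmo+Ang II minus Ang II, -0.68 for Kmo+Ang II minus Ctrl, -0.00094 for WA minus WC, -0.85 for KKA minus WA and -0.85 for KKA minus WC. Summed with Gm49333, it was -0.71 for Ang II minus Ctrl.

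Leaving out 1 library turned the sign of some members, with these ranges. For Ang II minus Ctrl they were Ednrb (-0.40 to 0.000067) and Ece2 (-0.17 to 0.41). For Kmo+Ang II minus Ang II they were Edn3 (-1.15 to 2.36), Ednra (-0.18 to 0.34), Ednrb (-0.40 to 0.32), Ece1 (-0.17 to 0.31) and Ece2 (-0.91 to 0.84). For Kmo+Ang II minus Ctrl they were Edn1 (-0.089 to 0.87), Edn3 (-2.38 to 0.68), Ednra (-0.48 to 0.033), Ednrb (-0.59 to 0.14), Ece1 (-0.090 to 0.39) and Ece2 (-0.74 to 1.01). For WA minus WC it was Ece2 (-0.30 to 0.42, and -0.26 to 0.45 in 6 libraries). For KKA minus WA they were Ednra (-0.43 to 0.095), Ece1 (-0.028 to 0.45) and Ece2 (-0.86 to 0.89). For KKA minus WC they were Ednra (-0.24 to 0.27), Ednrb (-0.15 to 0.58), Ece1 (-0.23 to 0.25) and Ece2 (-0.80 to 0.96).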
